A study of Homo sapiens with 11 samples.

Results

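The regions described here are the peaks of H3K27me3 on chromosome 20 in HK2 cells. They were chosen by a single rule, every peak called on this chromosome in either of the 2 deposited H3K27me3 lists. This gave 3596 of the 45924 peaks of replicate 1 and 4254 of the 32746 peaks of replicate 2. The chromosome was picked with its peak density already in view, so the H3K27me3 values below are a description and were not tested.

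HK2 is an immortalised line of proximal tubular epithelial cells of the human kidney, studied here in one culture condition, DMEM-F12 medium with serum and a low level of DMSO. Cells fixed with formaldehyde were immunoprecipitated with antibodies to H3K27me3 (Diagenode), H3K4me3 (Abcam) and H3K27ac (Abcam), with 2 replicates of each mark, and RNA was sequenced in 2 libraries. Replicate 1 of each mark carries no number in the labels, and numbers do not pair marks with each other or with RNA libraries. HiChIP libraries were not used.

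Trimethylation of lysine 27 on histone H3 is laid down by EZH2 in Polycomb repressive complex 2. It covers broad stretches over silent genes, among them regulators of other lineages and developmental stages. H3K4me3 sits at promoters and can lie beside H3K27me3 at silent developmental genes, while acetylation of the same lysine excludes its trimethylation on one histone tail and accompanies active promoters and enhancers.

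The 5 longest intervals covered by peaks of both replicates lay at NKX2-2, FOXA2, INSM1 and SLC32A1 and in a stretch with no protein-coding gene. Sequences are given for 200 bases at the middle of the 3 longest intervals that reach a transcription start site (TSS) and of the 2 longest that do not, because they give the base composition under the longest shared coverage. They were read from the GRCh37 (hg19) reference, 5′ to 3′, and capitals mark CG dinucleotides.
NKX2-2 interval, middle, chr20:21499395-21499594, plus strand: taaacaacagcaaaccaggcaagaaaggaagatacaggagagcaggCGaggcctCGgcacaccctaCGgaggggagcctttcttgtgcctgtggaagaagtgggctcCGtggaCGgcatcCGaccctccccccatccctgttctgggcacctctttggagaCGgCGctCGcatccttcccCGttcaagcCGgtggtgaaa
Interval downstream of the FOXA2 starts, middle, chr20:22553910-22554109, plus strand: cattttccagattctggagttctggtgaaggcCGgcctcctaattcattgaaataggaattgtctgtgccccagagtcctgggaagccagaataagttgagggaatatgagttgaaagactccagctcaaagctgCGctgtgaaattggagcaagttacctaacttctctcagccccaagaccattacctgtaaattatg
INSM1 interval, middle, chr20:20347469-20347668, plus strand: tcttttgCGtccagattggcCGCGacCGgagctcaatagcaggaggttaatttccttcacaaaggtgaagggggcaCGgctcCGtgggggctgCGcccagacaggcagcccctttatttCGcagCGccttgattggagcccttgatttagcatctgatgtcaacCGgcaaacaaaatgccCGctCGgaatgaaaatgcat
Interval nearest to KIZ, middle, chr20:21084102-21084301, plus strand: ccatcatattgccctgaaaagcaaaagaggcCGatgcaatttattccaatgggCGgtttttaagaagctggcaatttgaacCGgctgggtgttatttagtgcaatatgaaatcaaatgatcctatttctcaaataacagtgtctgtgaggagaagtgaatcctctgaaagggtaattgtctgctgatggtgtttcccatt
SLC32A1 interval, middle, chr20:37354331-37354530, plus strand: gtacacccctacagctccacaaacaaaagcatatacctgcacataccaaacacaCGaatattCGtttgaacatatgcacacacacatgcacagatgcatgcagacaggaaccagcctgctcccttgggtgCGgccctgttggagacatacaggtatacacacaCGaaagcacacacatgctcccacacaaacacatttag

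NKX2-2, a homeobox factor of neural and pancreatic cells, lies in the longest interval, 15889 bp from 21491551 to 21507439. Its bases shown here are intergenic, 4693 bp from the nearest NKX2-2 start, with 11 CG. The interval of 15583 bp over the end of FOXA2, an endoderm factor, continues into the long non-coding RNA gene LINC00261, and the bases shown lie in that gene outside its exons, with 2 CG. INSM1, a zinc-finger factor of neuroendocrine cells, lies under 11800 bp, and 1080 bp separate the shown bases, with 12 CG, from its start. In the interval of 11557 bp with no protein-coding start, whose nearest such gene is KIZ, a centrosomal protein, the bases lie in an exon of the non-coding gene LINC00237 and hold 3 CG. SLC32A1, which loads GABA into synaptic vesicles, has 11062 bp, and the bases lie in its intron, 1202 bp from the start, with 4 CG. Over the whole intervals, the observed to expected ratio of CG was 0.643, 0.457, 0.751, 0.576 and 0.60 in this order, against 0.248 for chromosome 20 as a whole and a median of 0.192 and 0.193 for its peaks in replicates 1 and 2. The longest shared intervals were thus richer in CG than the median peak of the chromosome.

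Chromosome 20 carried the densest H3K27me3 peaks of the 22 autosomes in both replicates. Per Mb of reference bases other than N it held 60.4 peaks in replicate 1 and 71.5 in replicate 2, while the median of the other 21 autosomes was 13.2 and 7.80. The ratio was 4.57 and 9.16, with a mean of 6.87. Chromosome 10 came next, with 29.5 and 32.6, and chromosome 13 was lowest, with 3.83 and 1.82. The chromosome has 2.22% of the autosomal bases and 2.84% of the autosomal protein-coding genes, but 7.83% (7.59 to 8.08) and 13.0% (12.6 to 13.4) of all peaks. Ranges in brackets are 95% Wilson intervals, which reflect counting error alone and treat peaks or genes as independent. Neighbouring peaks lay in groups, so the ranges may be too narrow. Of the bases under autosomal peaks, 11.2% and 14.4% were on chromosome 20. The lists hold neither reads nor scores, so the depth at a single peak is unknown. The paper's supplement gives fewer aligned read pairs for replicate 2 of each mark than for replicate 1. It also gives the share of mapped reads that fall in peaks. This share was lowest for H3K27me3, with similar values in its replicates. For H3K4me3 and H3K27ac it was lower in replicate 2 than in replicate 1. What depth and this share add to the differences between lists was not tested.

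Peaks covered 16.6% and 6.39% of chromosome 20, against medians of 2.41% and 0.636%, ratios of 6.88 and 10.0. Chromosome 10 reached 7.73% and 2.86%. Wider peaks added to this. The median width was 1619 bp in replicate 1 and 604 bp in replicate 2, where the medians of the other autosomes had a middle value of 1105 and 528.5 bp. In replicate 1, 527 peaks (14.7%) were at least 5 kb wide, and in replicate 2 only 40 (0.940%), compared with 6.45% and 0.804% of peaks elsewhere. Chromosome 10 was close in replicate 1, with a median of 1565 bp and 14.0% of peaks at that width. In replicate 2, chromosome 13 had a higher median, 606.5 bp, and chromosome 20 ranked 8 of 22 for wide peaks.

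**Figure D1:**
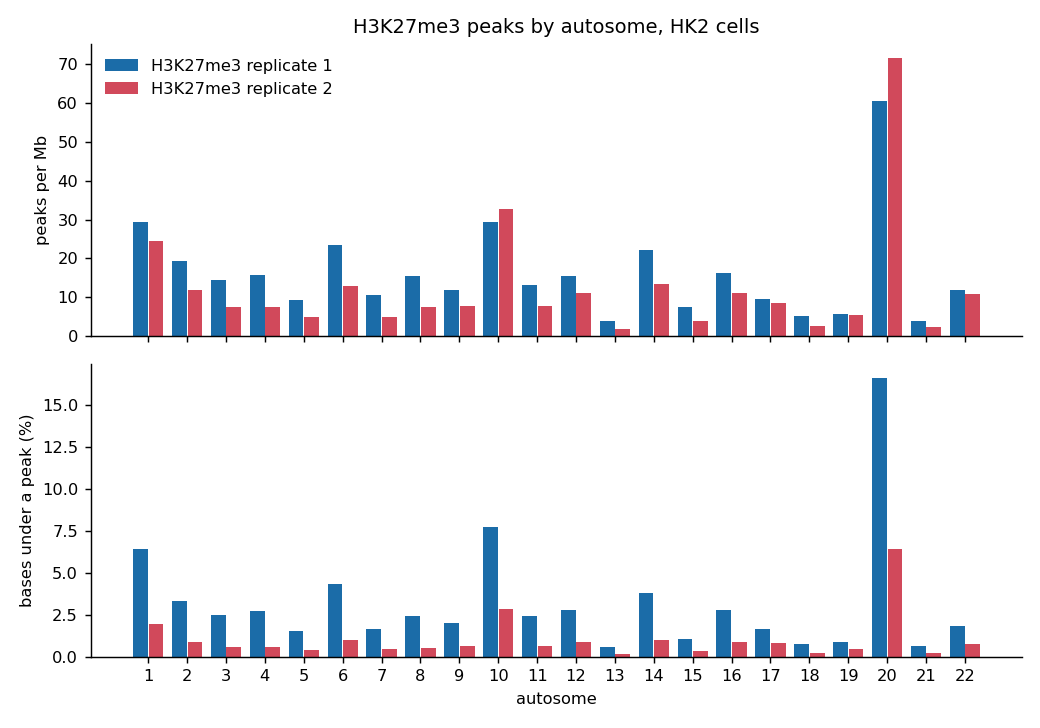
Peaks of H3K27me3 per Mb (top) and percent of bases under a peak (bottom) on each autosome, with one bar per replicate. Chromosome 20 is highest in both panels and both replicates, at 60.4 and 71.5 peaks per Mb, and chromosome 10 is next.

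Peaks on chromosome 20 were also found in both replicates more often than at the median autosome. Of the peaks of replicate 1, 1838 (51.1%) touched one of replicate 2, and 3228 (75.9%) of replicate 2 touched one of replicate 1, while the other autosomes had medians of 27.8% and 62.1%. Chromosome 10 was close, with 49.0% and 75.5%. Bases covered in both made up 4.97% of the chromosome, against a median of 0.431%, in 3240 intervals with a median of 600 bp. Denser peaks also meet by position alone, and how much of this sharing comes from density was not tested.

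Neighbouring peaks formed long groups. With peaks closer than 5 kb joined, 1414 groups of replicate 1 and 1540 of replicate 2 remained, with median lengths of 5.02 and 2.42 kb, against 1.68 and 0.640 kb elsewhere. After joining, the mean ratio of median width was 3.39, where single peaks gave 1.3, and the mean density ratio was 3.96, where single peaks gave 6.87. Groups of at least 5 peaks held 40% and 46% of the peaks, and 13.3% and 12.1% at the median autosome. Chromosome 10 had 36.5% and 44.7%, with median group lengths of 3.86 and 2.01 kb. The longest group in replicate 1 spanned 140 kb from 9871904 to 10011561 and includes ANKEF1. In replicate 2 it spanned 125 kb from 49654440 to 49779590, with 36 peaks and no protein-coding gene.

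Both arms shared the high density. The short arm, 20p, had 70.7 and 80.1 peaks per Mb and the long arm, 20q, 52.3 and 64.7, and they ranked 1 and 2 of 39 autosomal arms in each replicate. The arm 10q followed with 39.9 and 45.3. The density of 20q was 0.740 and 0.808 of that of 20p.

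Along the arms, the density was high nearly everywhere. Of 59 windows of 1 Mb, 58 lay above the median of the other autosomes in each replicate, with medians of 63 and 71 peaks against 8 and 4. Of the 269 autosomal windows with the most peaks, out of 2694, 38 and 44 were on chromosome 20. On 20p, the 10 Mb next to the centromere gap had medians of 92 and 106.5 peaks per window, and on 20q the first 10 Mb had 30 and 40. The 2 replicates ranked the windows alike (Spearman 0.83, n = 59 windows, which share neighbours), while gene number showed little relation to the peaks (-0.19 and 0.18). In the 2635 windows of the other autosomes, gene number and peaks had coefficients of 0.44 and 0.51.

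**Figure D2:**
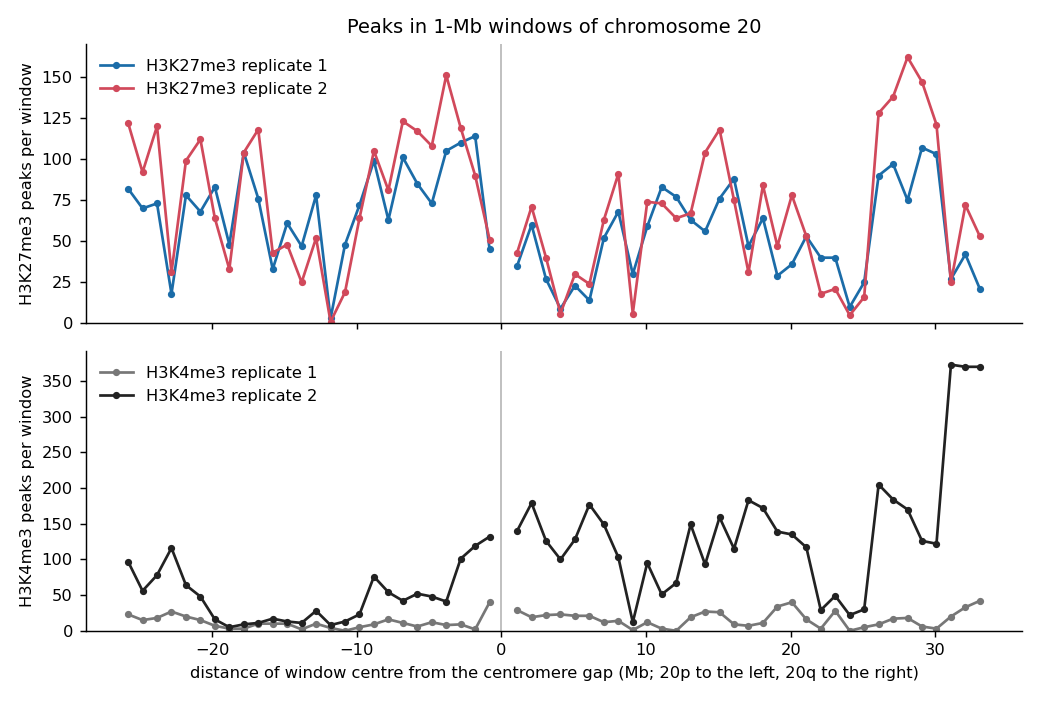
Peaks per 1-Mb window along chromosome 20 (vertical axes), by the distance of the window centre from the centromere gap in Mb, for H3K27me3 (top) and H3K4me3 (bottom). H3K27me3 falls to 3 and 1 peaks in 1 window of 20p and stands at 107 and 147 at 58 to 59 Mb on 20q, rank 3 in each replicate, while H3K4me3 replicate 2 is highest near the end of 20q.

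Windows were ordered by the worse of their ranks in the 2 replicates, which leaves out the densest window of replicate 1 (24 to 25 Mb, 114 peaks) and of replicate 2 (57 to 58 Mb, 162 peaks). In the first 5 by this order, the genes with FPKM of at least 1 had no peak in their bodies, and the covered genes were below that level. The window from 58 to 59 Mb (107 and 147 peaks) holds PHACTR3, a phosphatase and actin regulator with FPKM of 0.228 and 0.202, whose gene body was 41.4% and 16.8% covered. Beside it lie CDH26, a cadherin marked in replicate 1 (0.0465 and 0.223), and genes with no peak in their bodies, namely SYCP2 of the synaptonemal complex (10.7 and 15.4), FAM217B (4.16 and 6.75) and PPP1R3D, which directs a phosphatase to glycogen (4.05 and 4.75). FOXA2 (0.0412 and 0.0555) is the only protein-coding gene counted in the window from 22 to 23 Mb (105 and 151 peaks), and peaks covered 100% and 73.3% of it.

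From 19 to 20 Mb (101 and 123 peaks), peaks covered 45.0% and 16.6% of SLC24A3, a sodium, calcium and potassium exchanger listed at 0 in both libraries. Its neighbours RIN2, a regulator of endocytosis (7.74 and 7.56), and NAA20, which acetylates N termini (49.1 and 49.8), had no peak. The window from 59 to 60 Mb (103 and 121) holds CDH4, a cadherin of neural tissue, at 0.383 and 0.474, whose body was 6.33% and 2.95% covered. Between 56 and 57 Mb (97 and 138), genes marked in both replicates were PCK1, an enzyme of gluconeogenesis (0.0137 and 0.0106), and ZBP1, a sensor of nucleic acids (0.0241 and 0). Marked in replicate 1 were HMGB1P1 (0.108 and 0.0479), CTCFL, the germ-cell relative of CTCF (0 and 0), and C20orf85 (0 and 0). ANKRD60 (0 and 0) had peaks in its body but none near a start. In the same window PMEPA1, a brake on TGF-beta signalling (27.8 and 32.8), RAB22A of endosomes (7.85 and 8.46) and VAPB of the endoplasmic reticulum (15.6 and 14.5) had no peak in their bodies.

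The longest stretches without a peak in either replicate were picked after their values were seen. The longest, 1154 kb from 10378713 to 11532662, includes JAG1, a Notch ligand with FPKM of 47.0 and 49.4, and 66 and 51 H3K27ac peaks. A stretch of 791 kb includes FLRT3 and 23 and 6 H3K27ac peaks, and one of 751 kb over parts of PLCB1 and PLCB4 holds 122 and 55. The widest peak of replicate 2, 19815 bp, lay at NKX2-2, and replicate 1 had wider ones. They lay at TMC2, a channel protein of hair cells (46258 bp), BMP7, a growth factor of kidney development (45090 bp), FOXA2 (41795 bp) and LAMP5, a vesicle protein of neurons (32954 bp). Another of 30620 bp had no start within 1 kb, with NPEPL1, an aminopeptidase-like gene, nearest at 27958 bp.

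The other marks were denser on chromosome 20 too, with ratios below those of H3K27me3 in all 4 lists. H3K27ac had 26.6 and 19.7 peaks per Mb (ratios to the median of the others 1.3 and 1.48). H3K4me3 had 15.7 in replicate 1 (ratio 1.59, rank 5) but 100 in replicate 2 (ratio 4.18, rank 1), which holds 73942 peaks in all against 29130 in replicate 1. In that list, 20q reached 140 peaks per Mb and 20p 49.6. Expressed genes of chromosome 20, those with FPKM of at least 1 in both libraries, had a median log2(FPKM + 1) of 4.25 in each library, against 3.57 and 3.59 for genes elsewhere, and the highest among other chromosomes was chromosome 22 with 3.93 and 3.89. By arm, 20q had 4.39 and 4.34 and 20p 4.07 and 4.12, ranks 1 and 2 of 39. Across the 39 arms, peak density of H3K27me3 was higher where RNA level (Spearman 0.61 and 0.69) and H3K4me3 replicate 2 (0.48 and 0.63) were higher. The coefficients were 0.25 and 0.45 for H3K4me3 replicate 1, 0.22 and 0.41 for H3K27ac replicate 1, 0.24 and 0.42 for H3K27ac replicate 2 and 0.09 and 0.29 for genes per Mb. Over the 59 windows of chromosome 20 they were -0.07 and 0.19 for H3K4me3 replicate 2 and -0.31 and 0.06 for the number of expressed genes, and -0.34 and 0.06 for H3K4me3 replicate 1, -0.41 and -0.11 for H3K27ac replicate 1 and -0.34 and -0.04 for H3K27ac replicate 2. In the 2635 windows of the other autosomes the coefficients were 0.55 and 0.64 for H3K4me3 replicate 2 and 0.41 and 0.48 for expressed genes. There H3K4me3 replicate 1 had 0.46 and 0.56, H3K27ac replicate 1 0.27 and 0.33 and H3K27ac replicate 2 0.34 and 0.39. Arms share one genome and these libraries, so they are not replicates. The input DNA library was not analysed here, so peak densities were not set against the DNA present per chromosome arm. The part of H3K4me3 replicate 2 and of RNA level in the density of H3K27me3 was not tested.

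**Figure D3:**
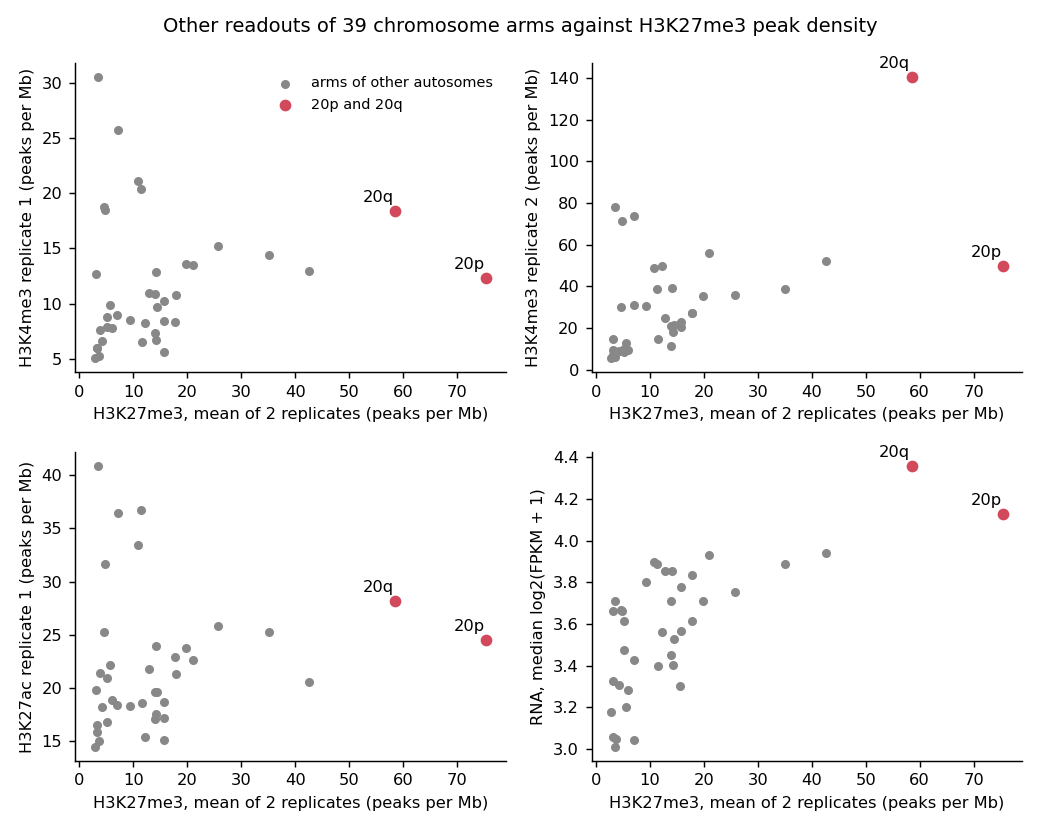
H3K4me3 and H3K27ac peaks per Mb and median log2(FPKM + 1) of expressed genes (vertical axes) against mean H3K27me3 peaks per Mb in 39 autosomal arms. 20q and 20p stand to the right of all other arms and are the 2 highest for RNA, with 4.36 and 4.13, and 20q is the highest for H3K4me3 replicate 2 with 140.

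Few of the chromosome 20 peaks lay near a protein-coding TSS. Within 1 kb of a protein-coding TSS were 221 peaks (6.15%) in replicate 1 and 195 (4.58%) in replicate 2, the lowest shares among the autosomes, whose medians were 8.21% and 12.4%. The share depends on the window, and its mean of 5.36% became 3.41% for peaks over the TSS itself, 13.5% within 5 kb and 11.2% when all annotated genes counted. With all annotated genes the shares were 13.1% in replicate 1, rank 19 of 22 from the highest, and 9.40% in replicate 2, still the lowest. Per Mb, peaks near a TSS were still the most frequent of the autosomes, with 3.71 and 3.28 against 1.19 and 1.11, and peaks away from one had 56.7 and 68.2 against 11.7 and 6.73. The added peaks were thus mainly away from promoters. Peaks near a TSS had a median width of 4683 and 1630 bp, those away 1521 and 591 bp. Midpoints outside protein-coding genes made up 67.0% and 68.4%, close to the medians of 65.2% and 64.6%, and those outside any annotated gene 51.7% and 52.1%, above the medians of 46.2% and 44.8%.

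Overlap with H3K4me3 depended on the list. In replicate 1 of H3K27me3, 777 peaks (21.6%, 20.3 to 23) touched an H3K4me3 peak of either list, and in replicate 2, 721 (16.9%, 15.9 to 18.1), with medians of 10.8% and 15.1% elsewhere. By replicate 1 of H3K4me3 alone the shares were 2.42% and 1.90%, the lowest of the autosomes, and 690 and 640 of the overlapping peaks met replicate 2 only. The mean share of 19.3% became 2.16% without H3K4me3 replicate 2, 1.88% with both lists required and 4.36% with at least 50% of the peak covered. Counted from the other side, 10.2% and 9.09% of the H3K4me3 peaks of replicate 1 on chromosome 20 touched H3K27me3 of replicates 1 and 2, against medians of 6.82% and 7.09%. Whether chromosome 20 lies above or below the other autosomes in this overlap therefore depends on the H3K4me3 list and on which peaks are counted.

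H3K27ac hardly met the H3K27me3 peaks. Of them, 18 (0.501%) and 24 (0.564%) touched an H3K27ac peak of either list, against medians of 0.561% and 1.66%. Of the H3K27ac peaks of replicate 1, 0.948% and 1.26% touched H3K27me3, against medians of 0.427% and 0.535%. Of those of replicate 2, 0.341% touched H3K27me3 of each replicate, against medians of 0.0817% and 0.365%. Whether chromosome 20 lies above or below the median thus depends on the peaks counted. For H3K27ac replicate 2 it also depends on the H3K27me3 replicate. With H3K27ac of both lists required, the mean share of 0.532% became 0.0118%, with list 2 alone 0.0887%, and with at least 50% of the peak covered 0.124%. None of the 3240 intervals shared by the H3K27me3 replicates touched a region with H3K27ac in both lists, while 66 (2.04%) touched one with H3K4me3 in both. Among the 39 shared intervals of at least 5 kb, 20 (51.3%) lay near a TSS and 14 (35.9%) touched such H3K4me3, while 5.15% of all 3240 lay near a TSS. A longer interval reaches more positions by its length alone, and this was not separated.

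Of the 547 protein-coding genes of chromosome 20, 156 (28.5%) had a peak of replicate 1 within 1 kb of a TSS and 133 (24.3%) one of replicate 2, against 14.6% and 13.1% of all autosomal genes. Peaks of both replicates marked 124 genes (22.7%, 19.4 to 26.4), against 11.4%, the highest share of any autosome, with chromosome 10 next at 19.9%. On 20p they marked 48 of 186 genes and on 20q 76 of 361. Peaks directly over a TSS gave 16.3% and those within 5 kb 37.3%.

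Marked genes were mostly silent. Of 538 genes with RNA values, 325 (60.4%) had FPKM of at least 1 in both libraries, where 59.4% of autosomal genes did. Among the 123 marked by both replicates, 18 did (14.6%, against 15.1% of such genes on all autosomes) and 54 were listed at 0 in both libraries. Of the 374 genes marked by neither, 297 did (79.4%), and their median FPKM was 13.3 and 13.4. The median log2(FPKM + 1) was 0 in both libraries for marked genes and 3.83 and 3.85 for unmarked ones, a mean difference of -3.84. On the other autosomes these medians were 0.04 and 0.05 against 2.68 and 2.71, so unmarked genes were higher on chromosome 20. The size of the difference depends on the scale and was -6.92 with a pseudocount of 0.1. Genes share neighbours and libraries and are not replicates. In bulk RNA, transcripts in few cells and a low level in every cell cannot be told apart.

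**Figure D4:**
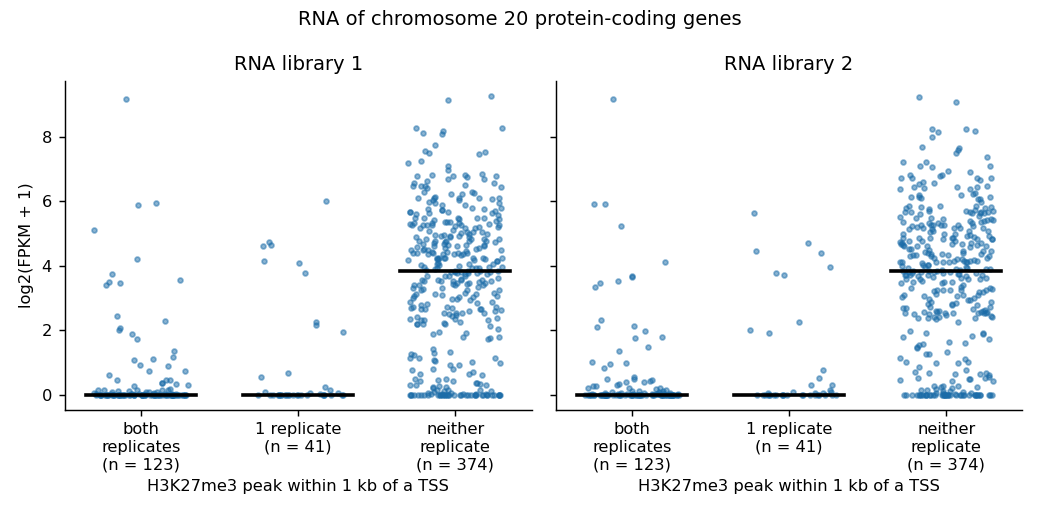
log2(FPKM + 1) (vertical axis) of chromosome 20 protein-coding genes in each RNA library, by whether H3K27me3 peaks of both, 1 or neither replicate lay within 1 kb of a TSS. Black lines are medians, at 0 for genes marked in both replicates and at 3.83 and 3.85 for those marked in neither.

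H3K4me3 separated the marked genes. Of the 124, 60 (48.4%) had H3K4me3 of both lists near a TSS, against 61.5% of such genes on all autosomes, and 16 (12.9%) had H3K27ac of both, against 11.9%. All 18 marked genes with FPKM of at least 1 were among the 60 with H3K4me3, whose median FPKM was 0.240 and 0.187, and 0 of the 63 without it reached that level. On the other autosomes, 306 of 1282 marked genes with H3K4me3 of both lists (23.9%) and 6 of 774 without it (0.775%) did. A split of this kind was thus also seen outside chromosome 20. At 50 of the 124 genes (40.3%), H3K27me3 and H3K4me3 of both lists lay at the same TSS, against 56.6% on the other autosomes. H3K27ac did so at 0 of the 124, against 2.56% elsewhere, and where a chromosome 20 gene carried it in both lists it was at a different start.

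Coverage around genes was measured from 1 annotated gene start per gene. Around the starts of genes with FPKM under 1 (n = 206), H3K27me3 covered 44.7% and 35.9% of starts, and 17.4% and 14.2% on the other autosomes. Between 10 and 50 kb away the mean was still 23.5% and 9.79%, against 4.93% and 1.49%. For the 325 genes of higher FPKM, coverage was 3.08% and 3.38% at the start, with a mean of 8.58% and 3.73% between 10 and 50 kb. At 50 kb upstream it was 14.5% and 5.54%, and at 50 kb downstream 6.15% and 2.46%. Such genes elsewhere had 1.41% and 1.45% at the start and 2.39% and 0.808% between 10 and 50 kb. The highest value within 50 kb was 16% at 48 kb upstream in replicate 1 and 8.31% at 40 kb upstream in replicate 2, beside 16.6% and 6.39% for chromosome 20 as a whole.

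**Figure D5:**
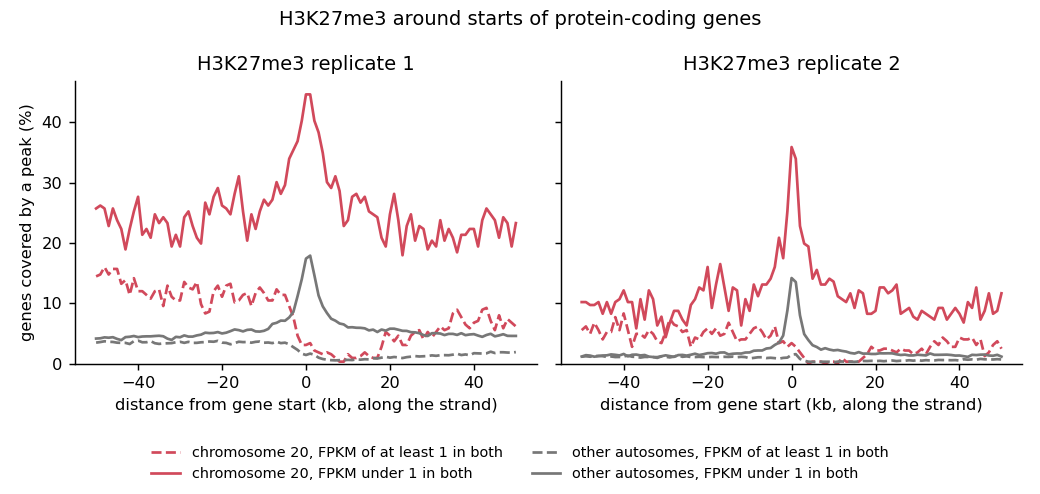
Percent of protein-coding genes covered by an H3K27me3 peak (vertical axis) by distance in kb from the annotated gene start, 1 per gene. Chromosome 20 is red and the other autosomes are grey, with FPKM under 1 solid and at least 1 dashed. At the gene start the chromosome 20 lines stand at 44.7% and 35.9% for low genes and at 3.08% and 3.38% for expressed ones.

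The genes named here for the most bases covered in both replicates within 5 kb of their starts all had FPKM below 1. They include CFAP61 of cilia and flagella (20975 bp, FPKM 0.118 and 0), NFATC2, a calcium-dependent factor of T cells (16124 bp, 0.203 and 0.0216), and PLCB1, a signalling phospholipase (15528 bp, 0.682 and 0.212). Next were CHRNA4, a nicotinic receptor subunit (14183 bp, 0 and 0), PHACTR3 (12988 bp), VSX1, a homeobox factor of the retina (12354 bp, 0 and 0.0496), and TMC2 (12255 bp, 0 and 0.0513). PAX1 of the axial skeleton and thymus (11459 bp), PDYN, which encodes opioid peptides (10663 bp), BMP7 (10403 bp) and INSM1 (9721 bp) were listed at 0 in both libraries. Genes with many starts collect more bases by this measure, as at CFAP61 with 23 starts, 12 of them marked in both replicates.

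Some marked genes were transcribed. GNAS, the imprinted stimulatory G protein subunit, had FPKM of 579 and 573, and of its 59 starts, 17 had H3K27me3 and 28 H3K27ac of both lists, with 0 in common. PIGT of GPI anchor transfer (60.9 and 60.0) had the mark at 2 of 47 starts. Within 5 kb of its starts, 0 bases were covered in both replicates, against 7920 at GNAS. MMP24, a membrane metalloprotease (57.9 and 59.2), has 1 start, which was marked, with 362 such bases. DLGAP4, a synaptic scaffold (33.8 and 36.6, 8463 such bases), and STMN3, a stathmin (17.6 and 16.5), were marked at 3 of 15 and 3 of 4. The other genes of highest level, RPS21 of the ribosome (617 and 608), CTSZ, a lysosomal protease (567 and 540), SNRPB of the spliceosome (312 and 301) and EEF1A2, an elongation factor (307 and 302), had no peak near a start in either replicate.

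Transcription factors of development were marked in both replicates at 16 of 26 genes, where 22.7% of all chromosome 20 genes were. Of all chromosome 20 genes with RNA values, 60.4% had FPKM of at least 1. VSX1, PAX1, INSM1 and NKX2-2 (0.110 and 0) had the most covered bases, and 9 of the 26 had FPKM of at least 1, with SOX12 (26.5 and 25.1) and NKX2-4 (17.6 and 16.5), both unmarked, highest. Neuronal channels, receptors and synaptic genes were marked at 25 of 37 and expressed at 10, led by the unmarked EEF1A2 and CPNE1, a copine (83.9 and 73.2). The list of secreted signals and Notch or Wnt genes also holds other genes, such as THBD and TGM2. Of its members, 5 of 14 were marked. BMP7, EDN3, an endothelin (0 and 0), ANGPT4, an angiopoietin (0.0184 and 0), RSPO4, a Wnt enhancer (0.0262 and 0), and THBD, thrombomodulin (1.56 and 1.59), were these, and TGM2, a transglutaminase (77.9 and 74.7), and JAG1 were unmarked.

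In the clusters of defensin, WAP, BPI-fold and cystatin genes, 24 of 52 were marked in both replicates, beside 22.7% of all chromosome 20 genes, and 45 were listed at 0 in both libraries, beside 107 of 538. Examples are DEFB126, a defensin, BPIFB1, a secreted airway protein, SLPI, a protease inhibitor, and CST9L, a cystatin, all at 0 in both. CST3, cystatin C (178 and 164), had no mark. Of the extracellular matrix and protease genes, 5 of 12 were marked (beside 22.7%), namely SLPI, MMP24, ADAM33, a metalloprotease (0 and 0), COL9A3, a cartilage collagen (0.361 and 0.259), and COL20A1, a collagen (0.0942 and 0.308). MATN4, a matrilin (0.0607 and 0.0682), had the mark in 1 replicate, and CTSZ and SDC4, a syndecan (180 and 180), in neither.

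Among all chromosome 20 genes, 22.7% were marked and 60.4% had FPKM of at least 1. Genes used by most cells had the mark at 1 of 38, PIGT, and all 38 had FPKM of at least 1 and a median of 60.9 and 58.8. SNRPB2 of the spliceosome (35.3 and 34.5) and IDH3B of the citric acid cycle (53.0 and 49.5) were unmarked. Cell cycle and growth genes had it at 0 of 21, and 20 were expressed, all but TNFRSF6B, a decoy receptor (0.000667 and 0.000238). MYBL2, a cell cycle factor (113 and 111), and UBE2C, a mitotic ubiquitin-conjugating enzyme (111 and 106), were highest by the mean of the libraries. Chromatin regulators had it in both replicates at 0 of 9, and CTCFL in 1 replicate. CHD6, a remodeller (10.1 and 11.0), ASXL1, a Polycomb-associated protein (41.6 and 43.5), PHF20 (21.6 and 20.8) and ADNP (16.1 and 37.3) were unmarked. Of 5 imprinted genes 1 was marked, GNAS. BLCAP (21.5 and 23.4), L3MBTL1 (5.99 and 7.45), MCTS2 (0.547 and 1.16) and NNAT (0.880 and 0.604) were not.

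Kidney tubule and mineral metabolism genes were marked in both replicates at 7 of 18, in 1 at 4 and in neither at 7, beside 22.7% in both and 69.8% in neither for all chromosome 20 genes. Marked in both were PCK1, BMP7, AVP, the precursor of vasopressin, a hypothalamic hormone acting on the kidney (0 and 0), EYA2, a developmental phosphatase (0 and 0.0603), SLC52A3, a riboflavin transporter (0.0608 and 0.0177), SLC4A11, a membrane transporter (2.32 and 2.44), and WFDC2, a secreted WAP protein (4.41 and 3.43). HNF4A, the hepatocyte and proximal tubule factor, was listed at 0 in both libraries. All 10 of its starts had a peak of replicate 1 within 1 kb, and the nearest peak of replicate 2 was 1845 bp from the gene start. Within 5 kb of its starts, 3320 bp were covered in both replicates, so its class depends on the 1-kb window. SLC13A3, the dicarboxylate transporter of the proximal tubule (0.00867 and 0.0336), SLC23A2, a vitamin C transporter (12.7 and 12.8), and ACSS1, a mitochondrial acetyl-CoA synthetase (3.52 and 3.74), had the mark in replicate 2 only.

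Unmarked kidney genes were CYP24A1, which degrades vitamin D (22 and 24.4), JAG1, ACSS2, a cytosolic acetyl-CoA synthetase (20 and 16.7), ADA, adenosine deaminase (17.4 and 17.6), SLC2A10, a glucose transporter (4.83 and 4.86), SLC9A8, a sodium and proton exchanger (4.77 and 4.82), and SLC17A9, a nucleotide transporter (0 and 0). Of the 18 kidney genes, 10 had FPKM of at least 1, beside 60.4% of all chromosome 20 genes, with HNF4A, PCK1 and SLC13A3 below 0.1 and CYP24A1, SLC23A2, JAG1, ACSS2 and ADA above 10. Markers of other kidney cell types numbered 14, with a summed FPKM of 237 and 230. MYL9 of contractile cells was highest (94.7 and 88.9), SIRPA of myeloid cells had 50 and 48.8, and CD93 of endothelium was listed at 0, as was AVP, which is in both lists. AVP and THBD of endothelium were among those marked in both replicates.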

How the data were processed

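ChIP-seq reads were aligned by the authors with Bowtie2 (hg19), and MACS2 was run per replicate. The deposited lists have 3 columns, with no score. The MACS2 version and control are not given in the sources used here. RNA reads were mapped with HISAT2, and FPKM and TPM of transcripts come, per the file headers, from StringTie 1.3.3 and GENCODE 27, a GRCh38 annotation, although the paper names hg19 for this mapping. No RNA coordinate was used. These were summed per gene and joined by Ensembl identifier to GENCODE 44 on GRCh37, with 538 of 547 protein-coding genes matched on chromosome 20 and 18764 of 19229 on all autosomes.

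Peaks were taken as zero-based half-open intervals. Density is per Mb of bases other than N, and arms were split at the longest run of N. Peaks overlapped if they shared 1 bp, and were counted by midpoint in windows of 1 Mb. A gene was marked if a peak lay within 1 kb of any annotated TSS. RNA used log2(FPKM + 1), and a gene was expressed at FPKM of at least 1 in both libraries. Ratios are to the median of the other 21 autosomes, averaged over replicates where a mean is given. Alternatives covered replicates, peak width, joining, overlap, TSS window, gene set, pseudocount, filter and TPM. Python 3.11.15, numpy 2.4.6, pandas 2.3.3, scipy 1.17.1 and matplotlib 3.10.9 were used. The interval functions were tested on simulated data.

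The peaks and gene lists were chosen with earlier results of these data known. The rule for named genes was fixed before the data were examined here. It took the 12 genes with the most bases covered in both replicates within 5 kb of a TSS, the 5 of highest FPKM with and without regard to the mark, all listed kidney genes, up to 4 and 2 of each other list by these measures, and genes of the 5 windows that come first by the worse of their ranks in the replicates, and at the 5 widest peaks. Some genes it takes in are not reported. ANKEF1, FLRT3, PLCB4, RSPO4, COL20A1, TNFRSF6B, L3MBTL1 and CD93 were named after their values were seen.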

Additional observations from a re-analysis of the deposited data

How the results depend on the processing

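Of 69 alternatives over 11 results, 39 moved the value by less than the SD between replicates, 30 by more, and 0 turned the sign of a difference or took a ratio across 1. Shares have no such direction, and the share with H3K4me3 went from above to below the median autosome (21.6% against 10.8%, then 2.42% against 4.38% in replicate 1) without H3K4me3 replicate 2. A mean of 2 replicates always moves by less than this SD when 1 is left out, so that comparison says nothing of stability, although the 39 include it. The SD of the density ratio was wide, 3.25, so its fall from 6.87 to 3.96 with peaks joined was also counted among the 39. Leaving out 1 library gave 4.57 to 9.16 for the density ratio, 6.88 to 10.0 for covered bases, 1.14 to 1.47 for width, 0.740 to 0.808 for 20q against 20p, 16.9% to 21.6% of peaks with H3K4me3, 0.501% to 0.564% with H3K27ac, 4.58% to 6.15% near a TSS, 24.3% to 28.5% of genes marked, -3.85 to -3.73 for the RNA difference of marked and unmarked genes and 0.67 to 0.68 for the RNA level of chromosome 20 over the other autosomes, whose value was 0.65.

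Joined peaks gave a density ratio of 3.96 in place of 6.87, a width ratio of 3.39 and a ratio of 20q to 20p of 0.873, and peaks of at least 1000 bp 0.844. The share with H3K4me3 was 4.36%, 1.88% and 2.16% with at least 50% of the peak covered, both lists and replicate 1 alone, and with H3K27ac 0.124%, 0.0118%, 0.455% and, for replicate 2, 0.0887%. Peaks near a TSS made up 3.41%, 7.43% and 13.5% at 0, 2 and 5 kb and 11.2% with all genes. Marked genes made up 16.3%, 28.0% and 37.3% at these distances and 30.2% with either replicate. The RNA difference was -6.92 with a pseudocount of 0.1, -5.21 with TPM, -2.96 as a mean and -3.13 for FPKM of at least 0.1. The RNA level was 0.49 with no filter, 0.57 at FPKM of at least 5, 0.69 with a pseudocount of 0.1 and 0.68 with TPM. Wider windows, more lists and other scales move these values by construction, and for the others the cause was not tested.

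The lists hold no reads, so the effect of the different depths of the replicates on peak number and width was not tested. No paired analysis was possible because replicate numbers do not pair the marks and no result comes from a test.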
